A study of Mus musculus with 2 samples.

Results

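The genes described here are the 6 let-7 family genes of the mouse whose symbols carry no copy number, which marks a mature microRNA encoded at 1 locus. They are Mirlet7b, Mirlet7d, Mirlet7e, Mirlet7g, Mirlet7i and Mir98, chosen by symbol from the 2202 microRNA genes of the deposited tables. All 6 were found in both tables. They were measured by small RNA sequencing of gastrocnemius, the large calf muscle. The animals were male B6CASTF1/J mice, hybrids of C57BL/6J and a CAST strain, aged 36 days. The labels number 2 different males but give both the same donor identifier. Their 2 small RNA libraries form 1 group with no treatment and no second condition. Levels are given as CPM, a gene's reads per 1000000 reads counted on the strand of a microRNA gene, with the SD over the 2 libraries.

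let-7 is among the oldest known microRNAs, found in worms through mutants that fail to finish larval development. Mature let-7 guides Argonaute proteins to messenger RNAs through its seed, bases 2 to 8. Known targets include the growth regulators Hmga2, Myc, Ras genes and Lin28. The protein Lin28 in turn binds the loop of let-7 precursors and blocks their processing. let-7 levels rise as cells differentiate, and the Lin28 and let-7 pair is known to act on insulin signalling and glucose use in skeletal muscle.

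The mature sequences of the arm on the 5′ side of each hairpin are shown first. Reads of this arm can separate these genes only where these sequences differ. The sequences come from RefSeq (GRCm38.p6), are written 5′ to 3′, and have the seed in capitals. The let-7a sequence, encoded more than once, is added as the reference.

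let-7g-5p: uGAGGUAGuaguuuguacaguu
let-7i-5p: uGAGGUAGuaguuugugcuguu
let-7d-5p: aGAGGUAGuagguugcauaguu
let-7b-5p: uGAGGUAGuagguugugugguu
let-7e-5p: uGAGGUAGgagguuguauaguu
miR-98-5p: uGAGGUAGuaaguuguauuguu
let-7a-5p: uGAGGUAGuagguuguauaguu

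All 6 share the seed GAGGUAG and are 22 bases long, and 14 of the 22 positions are the same in all of them. Any pair of the 6 differs at 2 to 6 positions. With positions counted from 1 at the 5′ end and the base of let-7a first, let-7e carries U9G alone. let-7b carries A17G and A19G, let-7d carries U1A and U16C, and miR-98 carries G11A and A19U. let-7g carries G12U and U18C, while let-7i carries G12U, A17G, U18C and A19U. Among the 6, let-7g and let-7i are therefore the closest pair. They are identical over their first 16 bases and differ at A17G and A19U, given from let-7g to let-7i. Against the relatives that are encoded more than once, let-7b is 1 base from let-7c (G17A, from let-7b to let-7c).

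The 3p arms of the same hairpins do not share 1 seed, and the deposited counts are per gene, so reads of the arms are summed. In the 3p arms below, miR-98 and let-7b have the same bases 2 to 8, and the other 4 differ there.

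let-7b-3p: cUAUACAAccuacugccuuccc
miR-98-3p: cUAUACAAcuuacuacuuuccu
let-7d-3p: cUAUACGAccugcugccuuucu
let-7e-3p: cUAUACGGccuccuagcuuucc
let-7g-3p: aCUGUACAggccacugccuugc
let-7i-3p: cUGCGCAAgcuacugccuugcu

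These sequence differences bear on which reads could be counted. Among the 2202 annotated hairpins, the first 15 bases of the 5p arm match 1 hairpin for Mirlet7d and Mir98. Mirlet7g and Mirlet7i match each other's hairpin up to base 16, and Mirlet7e matches Mir7k, which encodes let-7k, up to the same length. Mirlet7b shares its first 16 bases with Mirlet7a-1, Mirlet7a-2, Mirlet7c-1 and Mirlet7c-2. From 17 bases on, each of the 6 matches 1 annotated hairpin. The 6 family genes with a copy number match at least 2 hairpins through base 22, since the mature molecule is the same at their loci. Matches elsewhere in the genome are not analysed here.

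**Figure D1:**
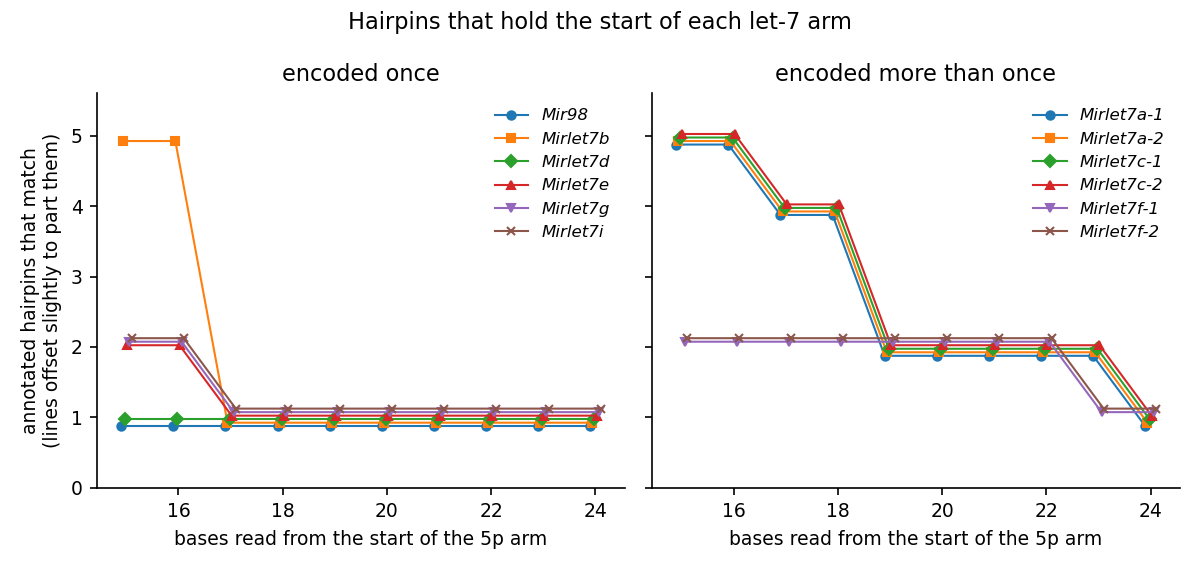
Number of annotated hairpins (y axis) that hold the first 15 to 24 bases (x axis) of each gene's 5p arm, read along its hairpin, with lines shifted slightly so that they can be told apart. The genes encoded once reach 1 hairpin by 17 bases, while the genes encoded more than once still match 2 hairpins at 22 bases.

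The libraries held 4134880 counted reads in replicate 1 and 3219740 in replicate 2, which is 20.96% and 19.2% of all reads. A further 70.4% and 73.3% of reads aligned to several loci, and the layout of the tables implies that no gene's count includes them. The tissue label was checked against striated muscle microRNAs. All 9 listed genes were counted in both libraries, and together they reached 26560 CPM in replicate 1 and 29499 CPM in replicate 2. Mir206, a microRNA of skeletal muscle, gave 25834 and 28690 CPM of this. The listed Mir1a-1, Mir1a-2, Mir133a-1 and Mir133a-2 carry copy numbers, so their counts can miss reads that match a second locus. The highest of them, Mir1a-2, had 315 and 347 CPM. Besides Mir206, the listed genes without a copy number were low as well. Mir499 had 247 and 286 CPM, Mir208b 103 and 116, Mir133b 12.6 and 14.3, and Mir208a 6.29 and 6.83. The check of the label thus rests mainly on Mir206. The endothelial Mir126a stood at 85413 and 95833 CPM, and the smooth muscle list (Mir143 and Mir145a) at 85297 and 93638 CPM. Since reads of several loci are missing, these sums do not rank the cell types. In whole tissue, fewer cells of a type and less RNA per cell cannot be told apart.

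The 6 genes together held 13.47% of counted reads in replicate 1 and 12.58% in replicate 2, or 13.0% ± 0.634 (SD, n = 2). This came from 557146 and 404970 reads. By the Clopper-Pearson method, the exact 95% limits were 13.44% and 13.51% for the first library and 12.54% and 12.61% for the second. Intervals here cover counting error only and treat each read as independent. PCR copies are not independent molecules, so the intervals can be too narrow. Of these reads, 70.1% ± 0.222 belonged to Mirlet7g and Mirlet7i, and the levels fell into 3 steps of 2 genes each.

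Mirlet7g (ENSMUSG00000065440.1) was highest, with 50564 CPM in replicate 1 and 48885 CPM in replicate 2 (49724 ± 1188, n = 2). It ranked in place 5 of all genes by counted reads in both libraries, where genes whose reads align to several loci can rank too low. Its locus is chr9:106178840-106178927 (mm10, plus strand), in an intron of Wdr82, which encodes a subunit of histone methyltransferase complexes.

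Mirlet7i (ENSMUSG00000065406.3) followed with 43738 and 39538 CPM (41638 ± 2970.2, n = 2). Its range lay below that of Mirlet7g but overlapped that of Mir23b, the next gene down, at 44380 and 38495 CPM. The locus of Mirlet7i is chr10:122985640-122985724 (minus strand), within an exon of D630033A02Rik, which the annotation calls a transcribed processed pseudogene.

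Mirlet7d (ENSMUSG00000065453.1) had 17853 and 17514 CPM (17684 ± 240.4, n = 2). Mirlet7b (ENSMUSG00000065564.1) had 17629 and 15149 CPM (16389 ± 1754, n = 2). The ranges of this pair overlap, with Mirlet7b close to Mirlet7d in replicate 1 and below it in replicate 2. Both are exonic: Mirlet7d is at chr13:48536012-48536114 (minus strand) in the long noncoding RNA 6720427I07Rik, and Mirlet7b at chr15:85707319-85707403 (plus strand) in the noncoding RNA Lncppara.

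Mirlet7e (ENSMUSG00000105758.1) had 2541 and 2343 CPM (2442 ± 140.2, n = 2). Mir98 (ENSMUSG00000065536.2) had 2417 and 2350 CPM (2383 ± 47.5, n = 2). Their ranges overlap, and each was the higher of the pair in 1 library, so no order can be given between them. Mirlet7e is at chr17:17830352-17830444 (plus strand) in an intron of Spaca6, a gene of sperm and egg fusion. Mir98 is at chrX:151913214-151913321 (plus strand) in an intron of Huwe1, which encodes a ubiquitin ligase.

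Mirlet7g had 209077 and 157396 reads, while Mirlet7e had 10507 and 7543 and Mir98 had 9994 and 7566. For Mir98 in replicate 1 the exact interval ran from 2370 to 2465 CPM. Because each mature arm is 22 bases, levels were compared without dividing by length. Divided by the length of the hairpin gene, which ran from 85 to 108 bases, Mirlet7b stood above Mirlet7d, at 207 and 178 CPM per base against 173 and 170. On that scale Mirlet7e also stood above Mir98, at 27.3 and 25.2 CPM per base against 22.4 and 21.8.

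**Figure D2:**
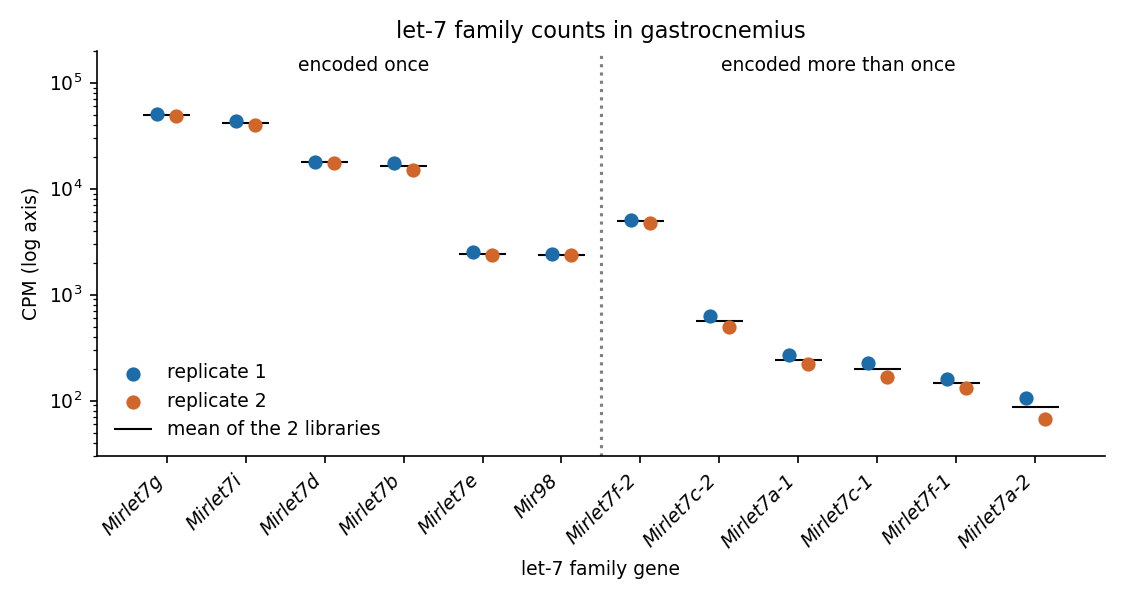
CPM on a log axis for the 12 let-7 family genes in replicate 1 (blue) and replicate 2 (orange), with the mean of both as a line. The 6 genes encoded once form 3 steps on the left, with Mirlet7g highest at 49724 CPM and Mir98 lowest at 2383 CPM, and Mirlet7f-2 at 4909 CPM is the only gene on the right within their range.

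Ratios between the members were then taken within each library, which removes the library size. Over all 15 pairs, the CPM ranges did not overlap for 13 and overlapped for Mirlet7d with Mirlet7b and for Mirlet7e with Mir98. Mirlet7g exceeded Mirlet7i by a log2 ratio of 0.21 in replicate 1 and 0.31 in replicate 2 (0.26 ± 0.07, SD, n = 2), or 1.20-fold. The sequences of these genes are the closest among the members, and their levels differed by more than the spread between the libraries.

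The step from Mirlet7i to Mirlet7d was 2.35-fold (log2 ratio 1.29 and 1.17), and that from Mirlet7b to Mirlet7e was 6.70-fold (2.79 and 2.69). From the highest to the lowest member, Mirlet7g over Mir98, the ratio was 20.9-fold (log2 ratio 4.39 and 4.38). Mirlet7d over Mirlet7b gave 0.02 and 0.21. Mirlet7e over Mir98 gave 0.07 and −0.0044, and it was the only pair of the 15 to change sign between the libraries. No p is given for these ratios, since with 2 libraries even the smallest exact two-sided p from flipping signs is 0.5.

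**Figure D3:**
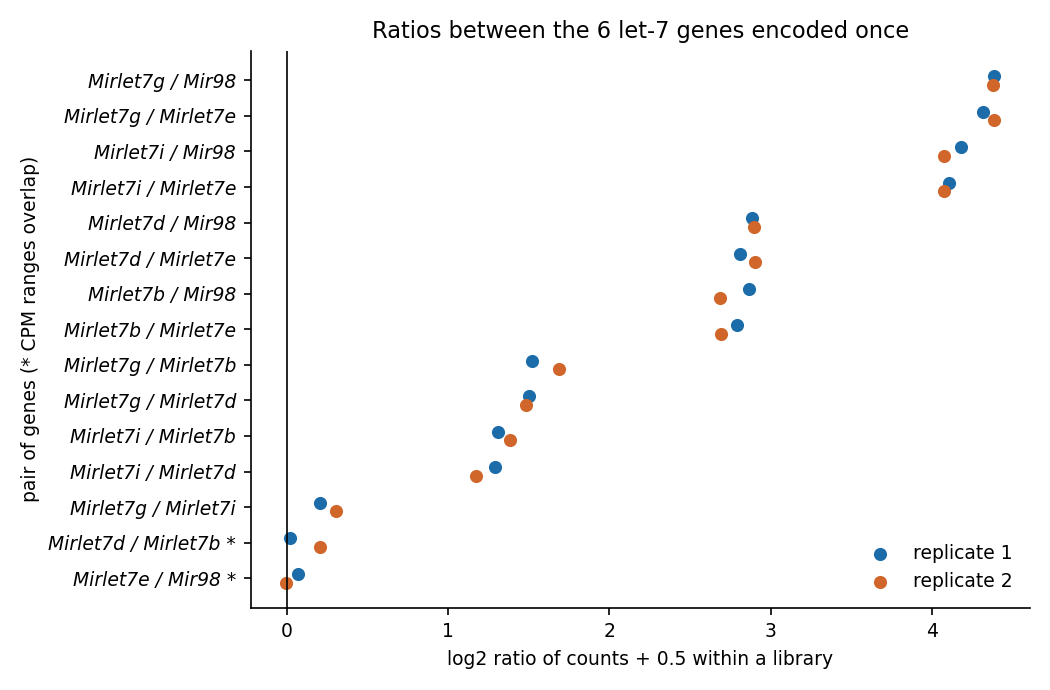
log2 ratios of counts + 0.5 (x axis) for each of the 15 pairs of the 6 genes (y axis) in replicate 1 (blue) and replicate 2 (orange). The starred pairs Mirlet7d with Mirlet7b and Mirlet7e with Mir98, whose CPM ranges overlap, come lowest in mean ratio, at 0.11 and 0.03, and the other 13 lie above 0 in both libraries.

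4 of the 6 have another microRNA gene within 10 kb on the same strand, and Mirlet7g and Mirlet7i have none. Mirlet7d shares 6720427I07Rik with Mirlet7f-1 and Mirlet7a-1, which start 1803 and 2158 bases before it. These neighbours had 145 ± 19.6 and 244 ± 34.6 CPM, so Mirlet7d exceeded them 122-fold and 72.9-fold. Mirlet7b exceeded Mirlet7c-2, which starts 716 bases before it within Lncppara and had 563 ± 101 CPM, 29.2-fold. These 3 neighbours are encoded more than once, so their counts can miss reads that match a second locus, and the ratios compare counts rather than molecules.

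In the cluster of Mirlet7e, no gene carries a copy number. Mir99b, of the miR-99 and miR-100 family, starts 164 bases before Mirlet7e, and Mir125a, the vertebrate relative of the worm microRNA lin-4, starts 460 bases after it. Mirlet7e exceeded Mir99b 2.14-fold, by a log2 ratio of 1.07 in replicate 1 and 1.12 in replicate 2, and the ranges did not overlap. Against Mir125a, at 3055 and 2522 CPM, Mirlet7e was lower by a log2 ratio of −0.27 and −0.11, with overlapping ranges. In each library Mirlet7e thus stood between its neighbours, all 3 of which lie within Spaca6.

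Mir98 was the one member below a family neighbour with a copy number. Mirlet7f-2, 868 bases before it in Huwe1, had 5044 and 4773 CPM (4909 ± 191, n = 2). Mir98 was lower by a log2 ratio of −1.06 and −1.02, so Mirlet7f-2 stood 2.06-fold above it even though reads that also match Mirlet7f-1 can be missing from its count.

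**Figure D4:**
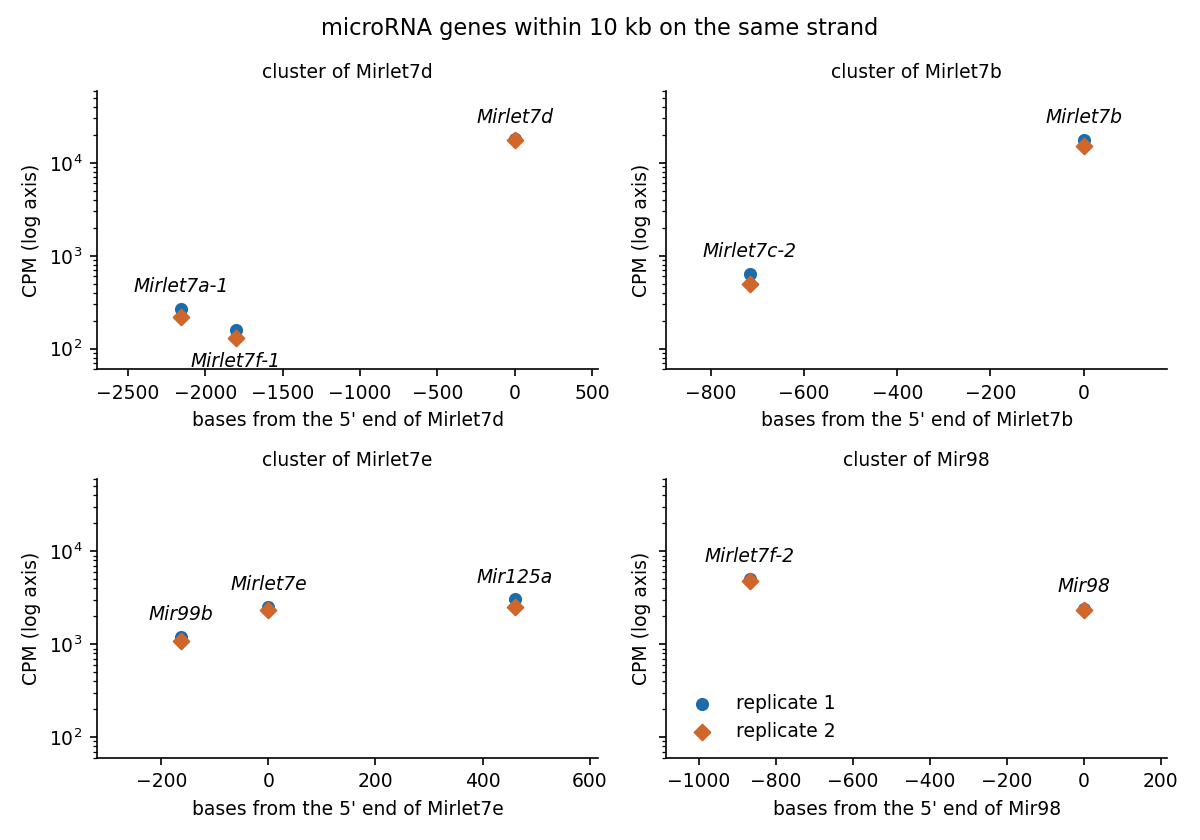
CPM on a log axis for the 4 members with a neighbour within 10 kb, against the distance in bases from the member's 5′ end, in replicate 1 (blue circles) and replicate 2 (orange diamonds). Mirlet7d and Mirlet7b stand far above their neighbours, Mirlet7e lies between Mir99b and Mir125a, and Mir98 lies below Mirlet7f-2.

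Set beside the whole family of 12 genes, the 6 held 95.4% of let-7 family counts in replicate 1 and 95.6% in replicate 2 (95.5% ± 0.0816, n = 2). The other 6 had 26623 and 18839 reads, of which Mirlet7f-2 had 20855 and 15369. This share is one of counted reads and not of let-7 molecules. Each of the other 6 shares a run of at least 22 bases with another hairpin, whereas the longest such run among the members is 19 bases, between Mirlet7g and Mirlet7i and between Mirlet7b and Mirlet7c-2. The reads of the 6 genes together equal 4.01% and 3.30% of the reads that aligned to several loci.

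Outside the family list, the RefSeq table gives the seed to Mir7k and Mir1961. Mir7k had 1 read in each library, and Mir1961 had 0 reads in both, where the limit that a count of 0 allows, taken as 3 reads, is 0.726 CPM in replicate 1 and 0.932 CPM in replicate 2. Mir7j, which encodes let-7j but has another base within the seed, had 98 and 33 reads. Mir202, a gonad microRNA sometimes grouped with let-7, had 1 and 0 reads.

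Between the animals, the 6 genes differed little. The ratio of replicate 2 over replicate 1 was taken as log2 of CPM + 1 after TMM scaling, a method that centres the libraries on genes of moderate change. It was 0.14 for Mirlet7d, 0.13 for Mir98, 0.12 for Mirlet7g, 0.05 for Mirlet7e, 0.02 for Mirlet7i and −0.05 for Mirlet7b. The exact counting intervals were narrow, from 0.12 to 0.16 for Mirlet7d and from −0.07 to −0.04 for Mirlet7b, but 1 animal on each side gives no measure of the spread among animals.

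None of the 6 was past 2-fold, while 14 of the 261 genes averaging 10 CPM or more were (5.36%). Of these, 13 were lower in replicate 2 (4.98%) and 1 was higher (0.383%). At that background share a count of 0 among 6 is no result about let-7. The median absolute log2 ratio was 0.09 for the 6 and 0.18 for all 261 genes, or 0.14 for the 63 genes of at least 1000 CPM, a level chosen after the data were seen.

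The direction of these ratios rests on the scaling. Under scaling to the total count, which shifts the median of all genes by −0.16 against TMM, the 6 ratios were all below 0. On that scale only 20.3% of the 261 genes were above 0. With DESeq2 size factors all 6 were above 0, beside 51.0% of the 261 genes. Subtracting the median of all tested genes removes the scaling by construction. On that footing, with TMM, 5 of the 6 stood above 0, the highest being Mirlet7d at 0.19, and Mirlet7b stood at −0.0023. Among genes of at least 1000 CPM the median ratio was 0.02, the value of Mirlet7i itself, and 4 of the 6 stood above it.

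Some other microRNAs differed between the animals. Listed neuron and glia microRNAs had a sum of 4297 CPM in replicate 1 against 1244 CPM in replicate 2. Mir338 alone gave 4285 and 1236 CPM of this, with 6 of the 9 listed genes (the Mir124a and Mir9 loci) at 0 in both. Mir219a-2 had 9.19 and 4.66 CPM, while Mir219a-1 had 3.14 and 3.42 CPM. The difference in this list is thus mainly that of Mir338. Those of sensory neurons (Mir183, Mir96 and Mir182) summed to 200.5 and 23.9 CPM. The leukocyte list stood at 2326 and 2425 CPM and the red cell list at 405 and 394 CPM. Their part in the let-7 counts was not tested.

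**Figure D5:**
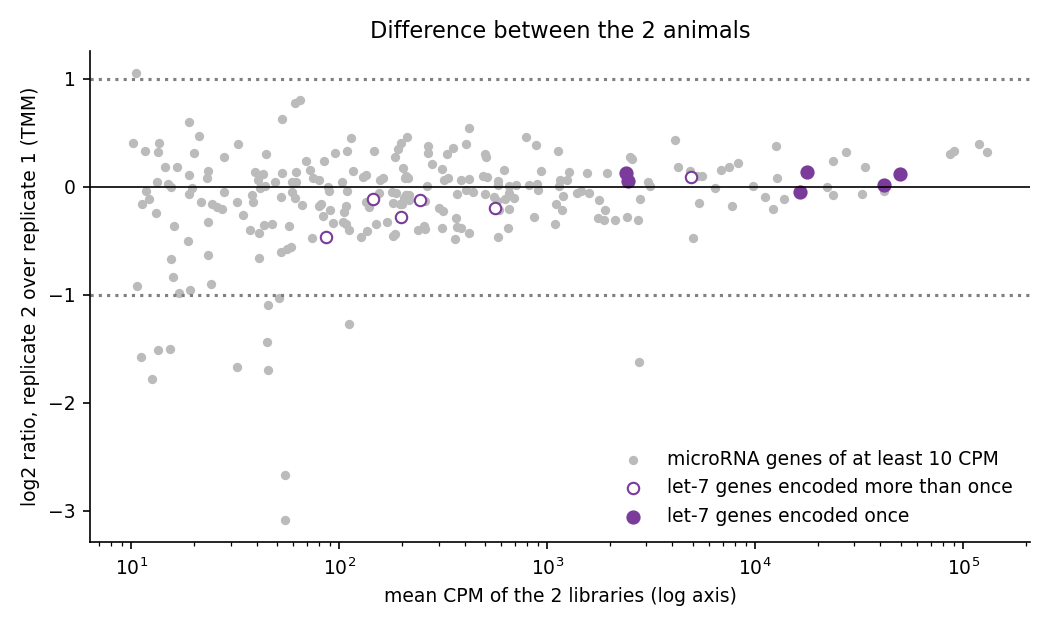
log2 ratio of replicate 2 over replicate 1 after TMM scaling (y axis) against mean CPM on a log axis (x axis) for 261 microRNA genes, with the 6 let-7 genes encoded once as filled points and the 6 others of the family as open points. Dotted lines mark 2-fold, and the filled points lie between −0.05 and 0.14.

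The 6 other family genes ran from −0.47 for Mirlet7a-2 to 0.09 for Mirlet7f-2 on the same TMM scale, with 5 of them below 0. Of all 261 genes, 44.1% were above 0 on this scale. Outside the family, the 5 genes whose mean level and replicate ratio came closest to the medians of the 6, over 2 libraries, were Mir322, Mir26b, Mir30d, Mir30a and Mir99a. Their levels ran from 12663 ± 523 CPM for Mir30d to 23715 ± 2840.1 CPM for Mir99a, and their ratios from −0.12 for Mir322 to 0.24 for Mir30a. With 2 libraries this likeness places genes at a similar level and says little of a shared pattern.

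The strand of the reads matters for 1 member. A microRNA gene named Gm25927 is annotated on the strand opposite Mirlet7e, from 17830343 to 17830459. Counted without regard to strand, reads there are ambiguous, and Mirlet7e falls to 0 in both libraries. On its own strand it has 10507 and 7543 reads, and Gm25927 has 0 on the other. Mirlet7d, Mirlet7g, Mirlet7i and Mir98 had the same count with and without regard to strand, and Mirlet7b gained 5 reads in replicate 1 and 3 in replicate 2.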

How the data were processed

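RNA of 2 gastrocnemius samples (1 group) was sequenced as microRNA-seq, with 1 table per library. The authors deposited whole-number read counts, not normalized, for 2202 genes in 3 columns (ignoring strand, gene strand, opposite strand), with 4 rows for reads of no gene. The assembly was mm10 with GENCODE M21, per the deposited file descriptions. Aligner, counter and trimming: not given in the sources used here. From the layout of the tables, multi-locus reads enter no gene. An effect of CAST alleles that differ from mm10 was not tested.

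The gene strand column was used. Symbols, positions and overlapping genes came from GENCODE M21, in which all 6 identifiers were found. Mature and hairpin sequences came from RefSeq (GRCm38.p6). All 6 members matched by symbol, and their hairpins were identical to the GENCODE transcripts. Shared stretches were searched on both strands of the GENCODE hairpins, leaving out genes that overlap the locus. Scaling factors came from edgeR 4.0.16 (TMM, 1.06 and 0.944) and DESeq2 1.42.0 in R 4.3.3, and the ratios were tested on simulated data. No test between conditions was possible. As a check that the tables do not hold 1 and the same library, their counts were compared (chi-square over its degrees of freedom 111.5, from 362 genes), and they were kept as 2 samples. The replicate spread may be partly technical.

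Named were the 6 members, the other family genes, microRNA genes within 10 kb on the same strand, the nearest genes in level, the 5 genes most like the members, seed sharers and marker list totals. Some list totals and some nearest genes are not printed. Members and lists were chosen with earlier results of these data known. Alternatives covered the strand column, the library size, the scaling, the pseudocount, the minimum level and leaving out each replicate.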

Additional observations from a re-analysis of the deposited data

Results flagged for a closer look

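Mirlet7b had 5 reads on the opposite strand in replicate 1, a column outside the main measurement, which is above the 3 reads that a count of 0 allows. Replicate 2 had 3 such reads. Beside 72894 reads on the gene's own strand they do not move its level, and the other 5 members had 0 in both libraries.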

How the results depend on the processing

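With 2 libraries and 1 group, no paired analysis was possible because there is no second group to pair with. The 6 genes' share of counted reads (13.0%) became 17.0% in the column ignoring strand, where the total is smaller, 14.98% without the most abundant gene and 2.62% of all reads. It ran from 12.6% to 13.5% when 1 replicate was left out. The share within the family (95.5%) stayed within 1 SD in the column ignoring strand. There the member Mirlet7e and the other family gene Mirlet7f-1 both have 0 reads, so it is a share over fewer genes. With 1 replicate left out, the share within the family stayed between 95.4% and 95.6%.

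The median level of the 6 was 17036 CPM, 22675 CPM ignoring strand and 19585 CPM without the most abundant gene. It kept within 1 SD under TMM and DESeq2 scaling and ran from 16331 to 17741 CPM with 1 replicate left out. Of the 5 neighbouring pairs in order of level, 3 did not overlap in range, and all 5 did not in the column ignoring strand, where Mirlet7e has 0 reads. That column gives no ratio for Mirlet7e. With 1 replicate left out there are no ranges to compare.

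The median log2 ratio of replicate 2 over replicate 1 (0.08) became −0.083 under total count scaling, −0.059 without the most abundant gene, 0.14 with DESeq2 size factors and 0.14 over 5 genes in the column ignoring strand. A pseudocount of 5 CPM did not change it beyond counting error. Genes past 2-fold numbered 14 at 10 CPM, 2 at 100 CPM, 1 at 1000 CPM (added after the data were seen) and 41 with no minimum. Of 83 further values for single genes or pairs, 48 stayed within their error and 35 moved. Those that moved were levels and replicate ratios of single genes, and no log2 ratio between members moved. Some replicate ratios changed sign with the scaling. Mirlet7g went from 0.12 with TMM to −0.049 under total count scaling, and Mirlet7b from −0.052 to 0.0016 with DESeq2 size factors. Depth limits the short list of seed sharers more than the members, each of which had at least 7543 reads in each library.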
